A study of Mus musculus with 12 samples.

Results

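The genes described here are the ligands and receptors of the tumor necrosis factor (TNF) superfamily in a mouse prostate cancer line, Myc-CaP, in which Myc is overexpressed. Members were the rows of the count table whose symbol starts with Tnfrsf or Tnfsf and a digit, together with Fas, Fasl, Cd40, Ltbr, Lta and Ltb. This gave 38 of 55216 gene symbols, of which 1, Tnfsf13os, is annotated as an antisense transcript and codes for no ligand. RNA was sequenced after 48 h in 12 libraries that form 6 groups of 2. Cells were left untreated (Ctrl), received interferon γ (IFNγ) at 200 or 2000 pg (IFN200 and IFN2000), received the DNA-crosslinking drug oxaliplatin at 2 μM (Oxali), or received the drug together with either IFNγ dose (Combo200 and Combo2000). All groups are the same line, of strain FVB/NJ and male origin, grown in culture. The doses are labelled without a volume, which the study gives as per ml. Nothing states that the 2 libraries of a group came from separate cultures, so p-values measure the spread between these libraries, which may be technical.

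TNF superfamily ligands are mostly trimers on the surface of immune cells, and they act by drawing receptor chains together on the cell that meets them. Receptors with a cytoplasmic death domain, such as Fas and the TRAIL receptor Tnfrsf10b, can assemble a complex that activates Casp8 and kills the cell, whereas receptors without one bind TRAF adaptors and mainly switch on NF-κB. Several of the second kind, among them Tnfrsf9 (4-1BB), Tnfrsf4 (OX40) and Tnfrsf14 (HVEM), are best known from costimulation between T cells and antigen-presenting cells.

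Library totals ran from 18749975 to 25931516 counts, so that 3 counts, taken as the limit below which a member is not detected, correspond to 0.111 to 0.167 CPM. CPM is the count divided by the TMM-scaled library total, and the limit covers counting error only. Partners within a group differed by more than sampling noise, with a chi-square per degree of freedom of 1.69 to 8.73. The title and the agent label conflict for the 6 libraries given a single treatment, and groups follow the titles. Combo2000 differed from the libraries titled Oxali at 574 of the genes tested and from those titled IFN2000 at 9522. The mean log2 ratio to Ctrl of 10 IFNγ targets was 0.82 to 0.88 in IFN200, 2.76 to 2.80 in IFN2000 and 1.51 to 1.62 in Oxali. That of 11 p53 targets was 0.21 to 0.27 in the 6 libraries titled with the drug and -0.10 to 0.05 in the other 6, but their median in Oxali against Ctrl was 0.03, with 5 called higher and 4 lower. Of the markers of the line, Myc (2268 to 3835 counts) and Krt8 (353 to 628) were present in each library, whereas Krt18 did not exceed 5 counts, Cdh1 did not exceed 6 and Epcam had none. Replicate 2 of IFN2000 carried reads of T cell genes, which touch several members and are given with them. Replicate 1 of IFN200 carried heart muscle reads (Actc1 63 counts, Myh6 28, Myl2 22), all 3 of which had 0 counts in both Ctrl libraries.

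Of the 38 rows, 30 exceeded 3 counts in at least 1 library and 21 passed the filter on low counts and were tested. By role, 4 of 5 death domain receptors, 3 of 4 decoy receptors, 9 of 14 costimulatory and other receptors and 5 of 14 ligands were tested. Of the 21, 5 (Fas, Ltb, Tnfrsf14, Tnfrsf19 and Tnfrsf8) had 3 or fewer counts in both Ctrl libraries and could pass only through treated groups, so a difference was built into their selection. The filter asks for about 10 counts, and Tnfrsf13c (4 and 2 counts in Ctrl), Lta (1 and 6) and Tnfrsf26 (7 and 9) were also below that there. Their passing thus also needed treated libraries. Cd40, the receptor through which T cells license antigen-presenting cells, had 0 counts in every library, as did the RANKL decoy Tnfrsf11b (osteoprotegerin) and the plasma cell receptor Tnfrsf17 (BCMA). Fasl, the ligand of Fas, and Tnfsf18 reached 1 count, the RANK receptor Tnfrsf11a 1, and Tnfsf15 and Tnfsf13os 2.

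**Figure D1:**
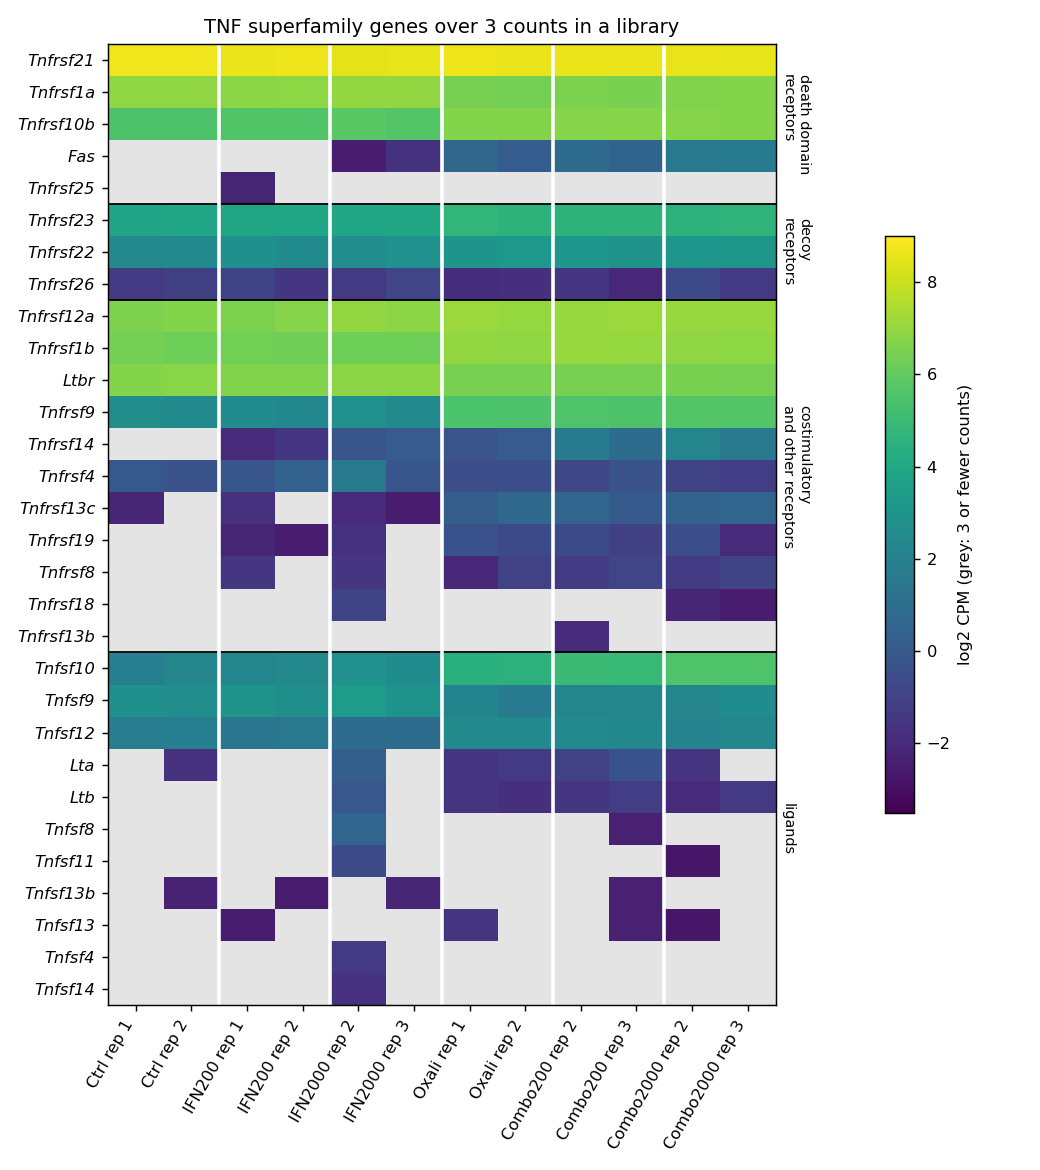
Log2 CPM (color) of the 30 family genes with over 3 counts in at least 1 library, in each of the 12 libraries (columns, 2 per group), ordered by role and by summed level. Grey cells have 3 or fewer counts; Fas is grey in Ctrl and IFN200, and Tnfsf4 and Tnfsf14 are colored only in IFN2000 replicate 2.

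In untreated cells the family was represented by a handful of receptors. Per kilobase of exon, the mean level in Ctrl was 104 CPM for Tnfrsf21 (death receptor 6), 51.5 for Tnfrsf12a (the TWEAK receptor Fn14), 47.1 for Tnfrsf1a (the main TNF receptor), 44.8 for Ltbr (the lymphotoxin β receptor), 20.7 for Tnfrsf1b (the other TNF receptor) and 8.49 for Tnfrsf10b. The ligands were below these receptors on the same scale, with 5.01 for Tnfsf9 (the ligand of Tnfrsf9), 2.29 for Tnfsf12 (TWEAK) and 0.77 for Tnfsf10 (TRAIL). Other receptors were below Tnfsf9, among them Tnfrsf23 (3.53), Tnfrsf9 (2.19), Tnfrsf22 (1.29) and Tnfrsf4 (0.64). Fas stood at 0.026 CPM per kilobase, which is 1 count in each Ctrl library.

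The drug changed most of the tested members, and more of them rose than fell. In Oxali against Ctrl 13 of the 21 were called higher and 4 lower (edgeR quasi-likelihood test, Benjamini-Hochberg adjusted p under 0.05 over 13177 genes), where 34.8% of all genes were called higher and 32.8% lower. The median log2 fold change was 0.84 over the members and 0.02 over all genes tested. Fas, Tnfrsf13c, Tnfrsf14, Tnfrsf19 and Tnfrsf8 are among the 13, and like Lta and Ltb they could pass the filter only through treated groups. The number called, the median and the p-values of these genes against Ctrl are therefore not free of that selection.

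Among the death domain receptors 2 rose and 2 fell. Fas (chromosome 19, 34290666 to 34327772, GRCm38) was read once in each Ctrl library and 34 and 23 times in the Oxali libraries, or 0.056 and 0.051 against 1.57 and 1.10 CPM. The groups did not overlap, and the summed counts gave a 25.2-fold difference with an exact 95% counting interval of 6.66 to 213. A lack of overlap, here and below, only describes the libraries. An exact permutation test of 2 against 2 gives a p of 0.333 at the smallest. The share of all genes without overlap was not counted. Its fitted log2 fold change was 4.52 (SE 0.62, adjusted p = 2.1e-06). Tnfrsf10b (chromosome 14, 69767472 to 69784411), the only mouse receptor for TRAIL that carries a death domain, rose from 46.3 and 46.3 CPM to 103 and 104 (log2 fold change 1.16, SE 0.05, adjusted p = 2.88e-14). Both genes are textbook targets of p53. Tnfrsf1a (chromosome 6, 125349362 to 125362484) went the other way, from 122 and 122 CPM to 86.6 and 84.6, with no overlap (log2 fold change -0.51, SE 0.04, adjusted p = 1.16e-09). Tnfrsf21 was called lower by only 0.09 on the log2 scale (log2 fold change -0.09, SE 0.04, adjusted p = 0.042), a call that was lost with upper-quartile scaling (adjusted p = 0.396) and without Ctrl replicate 2 (adjusted p = 0.213), and that 4 other left-out libraries (both Oxali and both Combo200) also took past 0.05, at 0.0553 to 0.172. The remaining death domain receptor, Tnfrsf25 (DR3), had 0 to 5 counts and was not tested.

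Decoy receptors bind a ligand without passing the signal on. Tnfrsf23 rose from 13.8 and 14.2 CPM in Ctrl to 26.3 and 24.0 in Oxali (log2 fold change 0.84, SE 0.08, adjusted p = 5.76e-09), and Tnfrsf22 from 5.29 and 5.57 to 7.92 and 8.88 (0.63, SE 0.13, adjusted p = 0.000199). The groups did not overlap for either gene. These neighbors on chromosome 7 are mouse TRAIL decoys with similar sequences: 27.42% of the 50-base words of Tnfrsf22 and 19.31% of those of Tnfrsf23 are shared with other genes, mostly with each other, so reads could be split between them. The third gene of that cluster, Tnfrsf26, had 6 to 16 counts per library and was not called in any comparison.

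Of the other receptors 7 rose, 1 fell and 1, Tnfrsf4, was not called. Tnfrsf9 (chromosome 4, 150914562 to 150946102), an inducible costimulator of T cells, was read 116 and 108 times without treatment and 968 and 961 times with the drug, or 6.45 and 5.47 CPM against 44.6 and 45.9. It was the largest rise among the members with a mean of at least 50 counts (log2 fold change 2.93, SE 0.09, adjusted p = 1.55e-15). Tnfrsf14 (chromosome 4, 154921933 to 154928563), which binds LIGHT and lymphotoxin α and also the inhibitory receptor BTLA, was read 1 and 2 times without treatment and 19 and 22 times with the drug. Its summed counts gave a 12.1-fold difference (interval 3.85 to 61.0), with a fitted log2 fold change of 3.51 (SE 0.71, adjusted p = 0.000214). Tnfrsf13c (chromosome 15, 82221743 to 82224369), the BAFF receptor of B cells, gave 4 and 2 counts against 25 and 34 (log2 fold change 3.08, SE 0.48, adjusted p = 1.18e-05). Like Tnfrsf14, Tnfrsf13c passed the filter only through treated groups, so its p-value is not free of that selection. For all 3 genes both Oxali libraries lay above both Ctrl libraries.

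Tnfrsf19 (TROY, chromosome 14, 60963875 to 61046490) gave 2 and 2 counts without treatment and 17 and 13 with the drug, a 6.63-fold difference in summed counts (interval 2.34 to 25.9; fitted log2 fold change 2.67, SE 0.64, adjusted p = 0.00107). Tnfrsf8 (CD30, chromosome 4, 145267137 to 145315164) gave 1 and 0 counts against 5 and 10 (13.3-fold, interval 2.04 to 558; fitted log2 fold change 3.48, SE 1.10, adjusted p = 0.00875). That call was lost without Ctrl replicate 2 (log2 fold change 2.55, adjusted p = 0.0851) and without Oxali replicate 2 (2.88, adjusted p = 0.0746). Among the well expressed receptors the changes were smaller. Tnfrsf1b rose from 82.7 and 75.2 to 125 and 121 CPM (log2 fold change 0.64, SE 0.05) and Tnfrsf12a from 95.2 and 104 to 140 and 130 (0.44, SE 0.06), while Ltbr (chromosome 6, 125306571 to 125313885) fell from 103 and 108 to 86.6 and 86.7 (-0.29, SE 0.04, adjusted p = 8.08e-06). No pair of groups overlapped for these 3 genes. Ltbr and Tnfrsf1a both lie on chromosome 6, and both were called lower.

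Among the ligands Tnfsf10 and Tnfsf12 rose and Tnfsf9 fell. Tnfsf10 (TRAIL, chromosome 3, 27317028 to 27342427), the ligand of Tnfrsf10b, was read 64 and 89 times without treatment and 474 and 478 times with the drug, or 3.56 and 4.51 against 21.8 and 22.8 CPM (log2 fold change 2.46, SE 0.11, adjusted p = 1.35e-13). The ligand and its death receptor were thus both higher with the drug, and neither pair of groups overlapped. Tnfsf12, the ligand of Tnfrsf12a, rose from 3.39 and 3.55 to 5.48 and 5.25 CPM (log2 fold change 0.63, SE 0.15, adjusted p = 0.000802), but 46.75% of its 50-base words are shared with the overlapping readthrough gene Tnfsfm13, so its level is uncertain. Tnfsf9 fell from 6.79 and 6.13 to 4.47 and 3.10 CPM (-0.76, SE 0.20, adjusted p = 0.00196), opposite to its receptor Tnfrsf9. It overlaps Gm11110 on the other strand, and the strand setting of the counting was not given in the sources used here. The lymphotoxins were near the limit: Ltb gave 0 and 1 counts without treatment and 7 and 6 with the drug (11.5-fold, interval 1.73 to 488, adjusted p = 0.0711), and Lta 1 and 6 against 7 and 8 (adjusted p = 0.476). Without either IFN2000 library, whose counts of Ltb were 22 and 0, the adjusted p of Ltb was 0.00509 or 0.005.

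The effect of the drug could be read on 3 sets of 4 libraries that have no library in common, namely Oxali against Ctrl, Combo200 against IFN200 and Combo2000 against IFN2000. In Combo200 against IFN200 14 of 21 members were called higher and 3 lower (36.5% and 33.5% of all genes), and in Combo2000 against IFN2000 11 and 4 (38.5% and 33.8%). In all 3 sets 11 members were called higher, or 52.4%, where 29.6% of all genes were, and 3 lower (Ltbr, Tnfrsf1a and Tnfsf9), or 14.3%, where 26.9% of all genes were. The 11 were Fas, Tnfrsf10b, Tnfrsf12a, Tnfrsf13c, Tnfrsf14, Tnfrsf1b, Tnfrsf22, Tnfrsf23, Tnfrsf9, Tnfsf10 and Tnfsf12. Of these, Fas and Tnfrsf14 had 3 or fewer counts in both Ctrl libraries and passed the filter only through treated groups. Tnfrsf13c, with 2 to 7 counts in the libraries without the drug, passed it only through the groups with the drug. The share of members called higher is therefore not free of that selection. No member was called in opposite directions. The log2 fold change was 2.93, 3.11 and 3.02 for Tnfrsf9 (SE 0.09 in each) and 1.16, 1.11 and 0.97 for Tnfrsf10b (SE 0.05, 0.04 and 0.04).

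Some of these calls were narrow. Tnfrsf12a in the third set (log2 fold change 0.18) became -0.04 after a correction for transcript length and GC content, and it lost its call without IFN2000 replicate 3 (0.10, adjusted p = 0.18) and without Combo2000 replicate 3 (adjusted p = 0.0503). Tnfrsf22, a TRAIL decoy, lost its call in the second set with the length and GC correction (adjusted p = 0.0686), with DESeq2 (0.075), without IFN200 replicate 2 (0.118) and without Combo200 replicate 2 (0.08), and in the third set with the correction (0.0789), with DESeq2 (0.0829), without IFN2000 replicate 2 (0.127) and without Combo2000 replicate 3 (0.0579). Tnfsf9 in the second set lost it without IFN200 replicate 1 (adjusted p = 0.0664). Tnfrsf19, the receptor TROY, was called in the second set (log2 fold change 1.41, adjusted p = 0.0271) but not with DESeq2 (0.112) or without IFN200 replicate 1 (0.0688), IFN200 replicate 2 (0.113) or Combo200 replicate 2 (0.124), and it was not called in the third set (1.16, adjusted p = 0.0588). Without IFN2000 replicate 2 or Combo2000 replicate 3 it was called there (1.84 and 1.66, adjusted p = 0.0381 and 0.00844). Tnfrsf8 was called in neither of the later sets (1.09 and 1.05). IFN200 replicate 1 and IFN2000 replicate 2 each held 8 of its counts, against 2 in each of their partners, and without these libraries it was called in both (2.34 and 2.28, adjusted p = 0.0297 and 0.0287). Lta, the soluble lymphotoxin, was called higher in the second set (2.48, adjusted p = 0.0331) but not with DESeq2 (0.153), without either IFN200 library (0.136 and 0.0884) or without Combo200 replicate 3 (0.166). Ltb, with 0 counts in IFN200 and 8 and 11 in Combo200, was at least 5.93-fold higher there.

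**Figure D2:**
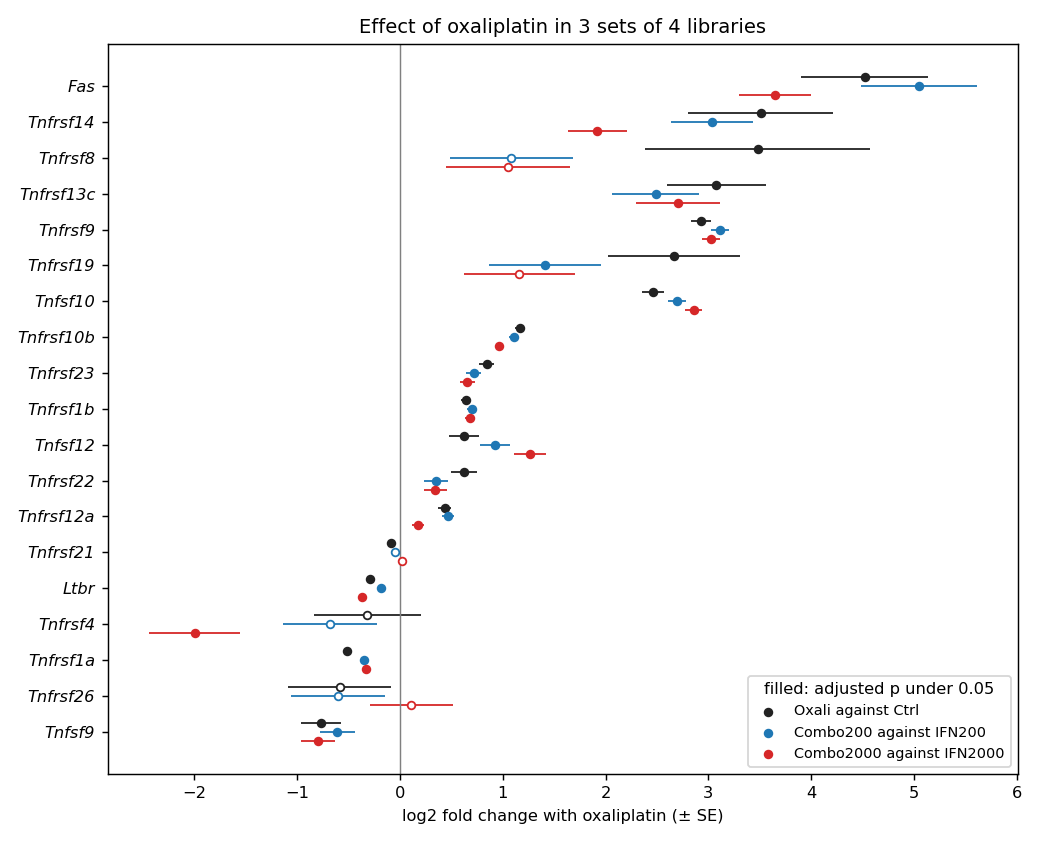
Log2 fold change with the drug (points, ± SE, horizontal axis) for 19 of the 21 tested members in 3 sets of 4 libraries; filled points were called at an adjusted p under 0.05, and the lymphotoxins Lta and Ltb are left out for their wide errors. The 3 points of Tnfrsf9 lie at 2.93 to 3.11, whereas those of Tnfrsf4 run from -0.31 to -1.99, the lowest in Combo2000 against IFN2000.

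IFNγ alone moved few members. At 200 pg none of the 21 was called (0.114% of all genes called in either direction). At an unadjusted p under 0.05 edgeR had 2, Ltbr and Tnfrsf8, and DESeq2 had 1 and called none. At 2000 pg 4 members were called higher and 2 lower, where 8.39% of all genes were called higher and 8.47% lower. Tnfrsf14 was the one that changed by more than 1 on the log2 scale: it was read 1 and 2 times without treatment, 6 and 8 times at 200 pg and 21 and 24 times at 2000 pg. Its groups did not overlap, and the IFN2000 counts were 12.4-fold above Ctrl (interval 3.97 to 62.2; fitted log2 fold change 3.54, SE 0.70, adjusted p = 0.00191). The call held without each library in turn, with a log2 fold change of 3.22 to 4.02. At 200 pg the ratio was 3.85-fold (interval 1.08 to 20.9, adjusted p = 0.816).

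The other calls at 2000 pg were under 1 on the log2 scale. Tnfsf10 rose from 3.56 and 4.51 to 7.02 and 5.94 CPM (log2 fold change 0.68, SE 0.14, adjusted p = 0.00215), a call lost without Ctrl replicate 1 (0.53, adjusted p = 0.0599) and without both libraries that hold T cell reads (0.55, adjusted p = 0.0571). Tnfrsf12a (0.26, adjusted p = 0.00758) and Tnfrsf10b (0.19, adjusted p = 0.0106) were called higher and Tnfrsf21 (-0.21, adjusted p = 0.000792) and Tnfsf12 (-0.88, SE 0.18, adjusted p = 0.00215) lower. Without IFN2000 replicate 2, the library with T cell reads, Tnfrsf12a and Tnfrsf10b were no longer called (adjusted p = 0.083 and 0.159), nor were they without Ctrl replicate 1 (0.117 and 0.0759), and Tnfrsf10b was also lost without Ctrl replicate 2 (0.0631). Both IFN2000 libraries also showed a trend of the log2 ratio to Ctrl with exon length, with a Spearman correlation across 13043 genes of -0.30 and -0.16 against -0.01 to 0.15 in the other 10, and its part in these small differences was not tested beyond the length and GC correction, under which all 6 calls held. Tnfsf9, the ligand of Tnfrsf9, was at the threshold (0.48, adjusted p = 0.0522), and it was called higher without IFN2000 replicate 3 (0.69, adjusted p = 0.00442) or without any 1 of the Oxali and Combo2000 libraries (0.0413 to 0.0451). Fas had 4 and 7 counts in IFN2000 (4.53-fold over Ctrl, interval 0.99 to 42.1, adjusted p = 0.13).

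Adding IFNγ to the drug moved few members further. In Combo200 against Oxali 2 members were called higher and 0 lower (1.58% and 0.25% of all genes), and in Combo2000 against Oxali 4 higher and 0 lower (3.37% and 0.987%). No fall was called at either dose with edgeR, which had 0 and 1 at an unadjusted p under 0.05, or with DESeq2, but with the length and GC correction Tnfrsf21 was called lower in Combo2000 (-0.15, adjusted p = 0.0105). Tnfrsf14, the receptor of LIGHT and BTLA, was read 19 and 22 times with the drug alone, 75 and 49 times with the low dose added and 122 and 67 times with the high dose added, or at 0.87 and 1.05, 3.27 and 1.89, and 4.52 and 2.89 CPM. Each combination lay above Oxali, and the 2 combinations overlapped with each other. The log2 fold change over Oxali was 1.40 at the low dose (SE 0.32, adjusted p = 0.0187) and 1.95 at the high dose (SE 0.29, adjusted p = 0.000166). The low-dose call was lost with DESeq2 (adjusted p = 0.0564) and without either Oxali library (0.167 and 0.12) or Combo200 replicate 2 (0.305).

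Tnfsf10, the TRAIL ligand, was at 21.8 and 22.8 CPM with the drug alone, 32.7 and 31.4 with the low dose added and 46.9 and 47.0 with the high dose added. The 3 groups did not overlap and lay in the order of the dose (log2 fold change over Oxali 0.52, SE 0.07, adjusted p = 6.12e-05, and 1.07, SE 0.07, adjusted p = 2.26e-10). Fas was read 34 and 23 times with the drug alone, 42 and 37 times with the low dose added and 79 and 75 times with the high dose added. Its rise was called at the high dose (log2 fold change 1.20, SE 0.25, adjusted p = 0.00473) and not at the low dose (0.28, SE 0.28, adjusted p = 0.809), but the call was lost with DESeq2 (0.103), without Oxali replicate 2 (0.12) and without Combo2000 replicate 3 (0.0549). Tnfrsf1a, lowered by the drug, was partly higher again, with 86.6 and 84.6 CPM in Oxali and 98.5 and 101 in Combo2000 (log2 fold change 0.22, SE 0.04, adjusted p = 0.00153), against 122 and 122 in Ctrl. Tnfrsf9 and Tnfrsf10b, both raised by the drug, differed little between Combo2000 and Oxali (log2 fold change 0.16, SE 0.06, adjusted p = 0.172, and -0.0033, SE 0.04, adjusted p = 0.985).

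**Figure D3:**
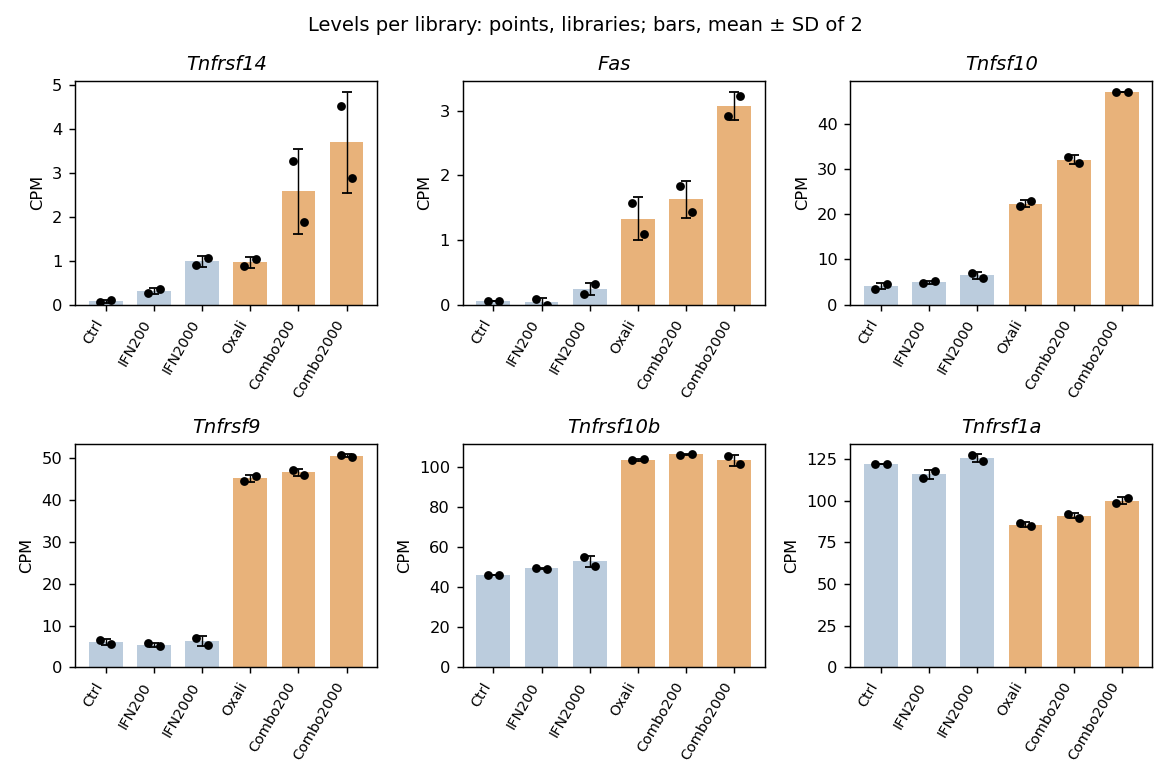
CPM of 6 members in each library (points), with bars for the mean of 2 libraries and error bars for the SD, by group; blue groups had no drug and orange groups had it. Tnfsf10 steps up from 22.3 in Oxali to 47.0 in Combo2000, whereas Tnfrsf10b stays at 103 in both.

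Both combinations were also compared with Ctrl. Against Ctrl 14 members were called higher and 4 lower in Combo200 (35.6% and 33.1% of all genes), and 13 and 3 in Combo2000 (35.7% and 33.5%). Fas was at 0.056 and 0.051 CPM in Ctrl and 2.93 and 3.23 in Combo2000, which was a 57.8-fold ratio of summed counts (interval 15.7 to 482; fitted log2 fold change 5.72, SE 0.50, adjusted p = 3.87e-09), and Tnfrsf14 was 47.3-fold higher (interval 16.0 to 232; 5.46, SE 0.51, adjusted p = 1.11e-08). Tnfsf10 was higher by 3.53 on the log2 scale (SE 0.09, adjusted p = 6.13e-17), Tnfrsf9 by 3.09 (SE 0.09) and Tnfrsf13c by 3.15 (SE 0.47). Tnfrsf19 was called (2.17, adjusted p = 0.00763), but not without Combo2000 replicate 2 (1.24, adjusted p = 0.215) or Ctrl replicate 2 (2.10, adjusted p = 0.051), and Tnfrsf8 was 17.3-fold higher (interval 2.81 to 712; 3.86, SE 1.01, adjusted p = 0.00217). Tnfsf12, or TWEAK, was called (0.38, adjusted p = 0.0262), but not after the length and GC correction (0.15, adjusted p = 0.408), with DESeq2 (0.148), or without Combo2000 replicate 3 (0.151), Ctrl replicate 1 (0.115) or Ctrl replicate 2 (0.0693). In Combo200 against Ctrl the calls of Ltb (adjusted p = 0.0329) and Tnfsf9 (lower) were lost without any 1 of the 4 libraries (0.053 to 0.156 and 0.0647 to 0.169), and that of Tnfrsf21 (lower) without Ctrl replicate 2 (0.0902) or Combo200 replicate 3 (0.0709). Tnfsf9 was not called in Combo2000 against Ctrl, but it was called lower there without Combo2000 replicate 3 (0.0401) and with the length and GC correction (-0.43, adjusted p = 0.0267).

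Whether IFNγ acted differently in the presence of the drug was tested by an interaction, the log2 change with IFNγ in drug-treated cells minus that in cells without the drug. No member was called at 200 pg (0.698% of all genes in either direction) or at 2000 pg (2.72%). At an unadjusted p under 0.05 edgeR had 1 member at the low dose and 8 at the high dose, DESeq2 had 1 and 4, and DESeq2 called none at either. For Tnfsf10 the interaction was 0.23 (SE 0.16, adjusted p = 0.676) and 0.40 (SE 0.16, adjusted p = 0.192). For Fas at the high dose it was -0.87 (SE 0.95, adjusted p = 0.711), and for Tnfrsf14 -1.59 (SE 0.88, adjusted p = 0.387). The errors of the last 2 span more than a doubling, so an equal and a smaller log2 change with IFNγ in drug-treated cells could not be told apart at this depth. On this scale an interaction of 0 means that the 2 fold changes multiply. Mean CPM in IFN2000, Oxali and Combo2000 was 0.24, 1.33 and 3.08 for Fas and 0.99, 0.96 and 3.70 for Tnfrsf14. Whether CPM added up was not tested. Without IFN2000 replicate 3, which leaves the library with T cell reads alone in its group, 5 members were called, all lower (Lta, Ltb, Tnfrsf10b, Tnfrsf12a and Tnfrsf4). With the length and GC correction Tnfrsf10b (-0.23, adjusted p = 0.0382) and Tnfrsf12a (-0.26, adjusted p = 0.0323) were called lower.

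The promoters of Fas, Tnfrsf14 and Tnfsf10, the members called higher by more than 1 on the log2 scale in Combo2000 against Oxali, are shown because they differ in the motifs they hold, and that of Tnfrsf1a, the other member called there, is not printed. RefSeq windows of 250 bases before the start (GRCm38.p6) were found for 29 of the 38 members, 33 windows in all. They were searched on both strands for an NF-κB site (GGG, any 5 bases, CC), for the γ-activated site (TTCNNNGAA) and for the interferon-stimulated response element (TTTC, any 2 bases, TTTC). In 20, 8 and 4 of the 33 windows these letters were present, and in 45.8%, 7.02% and 2.98% of 32851 windows of all genes. The windows are printed 5′ to 3′ on the strand of the gene, without bases that GENCODE places in an exon, and capitals mark the matches. Matches may overlap, and they are letters in the sequence and not measured sites.
Fas, chr19:34290409-34290658, plus strand: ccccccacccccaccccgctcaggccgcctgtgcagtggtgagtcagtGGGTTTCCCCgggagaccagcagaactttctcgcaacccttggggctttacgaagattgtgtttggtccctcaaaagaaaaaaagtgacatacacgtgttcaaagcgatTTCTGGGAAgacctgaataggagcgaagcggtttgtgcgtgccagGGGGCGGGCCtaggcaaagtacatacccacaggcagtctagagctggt
Tnfrsf14, chr4:154928203-154928327, minus strand: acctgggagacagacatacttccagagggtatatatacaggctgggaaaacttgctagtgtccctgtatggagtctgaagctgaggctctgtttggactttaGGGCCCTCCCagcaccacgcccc
Tnfsf10, chr3:27316827-27317027, plus strand: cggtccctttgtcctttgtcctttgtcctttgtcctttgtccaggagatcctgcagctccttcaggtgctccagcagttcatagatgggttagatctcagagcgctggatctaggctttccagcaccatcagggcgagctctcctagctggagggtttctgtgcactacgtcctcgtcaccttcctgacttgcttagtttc
In the Fas window NF-κB matches began 202 and 48 bases before the start and a γ-activated site match 93 bases before it. In Tnfrsf14 an NF-κB match began 148 bases before the start, and a match to the response element lay 64 bases before it, in the stretch left out as exon. The Tnfsf10 window held none of the 3 motifs. Whether a match or its absence bears on the level of a gene was not tested. The Tnfrsf1a window held an NF-κB match 216 bases and a γ-activated site match 244 bases before the start. Tnfrsf9 had windows at 2 starts, of which 1 held NF-κB matches 43 and 42 bases and a γ-activated site match 136 bases before its start. The starts are those of RefSeq. GENCODE starts Tnfrsf14 at 154928563, Tnfrsf1a at 125349362 and Tnfrsf9 at 150914562. The windows of these genes therefore lie inside the GENCODE gene, downstream of its start.

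Several ligands best known from lymphocytes had their highest counts in IFN2000 replicate 2. In that library 9 members exceeded 3 counts that did not in its partner, replicate 3. The ligands were Tnfsf8 (35 and 0 counts), Lta (28 and 0), Ltb (22 and 0), Tnfsf11 (RANKL, 15 and 3), Tnfsf4 (OX40 ligand, 9 and 0) and Tnfsf14 (LIGHT, 7 and 0), and the receptors Tnfrsf18 (GITR, 12 and 0), Tnfrsf8 (8 and 2) and Tnfrsf19 (7 and 3). For Tnfsf4 every other library had 0 counts, and for Tnfsf14 no other library had more than 1. Tnfrsf4, the OX40 receptor, was in each library but had 68 counts in that one and 10 to 30 in the other 11.

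The same library carried T cell markers. Of 15, 13 exceeded 3 counts there, against 1 to 6 elsewhere, and their summed level was 27.7 CPM against 0.353 to 4.06. It had 175 counts of Gzmb, 117 of Ifng, 115 of Il2ra, 64 of Ptprc, 33 of Cd4 and 13 of Cd3d, and 146 of Tnf, the founding ligand of the family. In replicate 3 all of these were at 0. Cd8a was at 0 in all 12 libraries. Combo200 replicate 3 had a trace of the same genes (Gzmb 7, Ifng 9, Il2ra 6, Tnf 5), and it also had 5 counts of Tnfsf8, at 0 in all libraries but those. Cd28 and Lck, which belong to the list, were read in every library and, IFN2000 replicate 2 aside, were higher in those with the drug. The 9 members summed to 6.12 CPM in IFN2000 replicate 2 and to 0.357 in its partner. In bulk RNA more cells of a type and more RNA per cell cannot be told apart, and the part of T cell reads in the values of these members was not tested beyond leaving the library out.

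**Figure D4:**
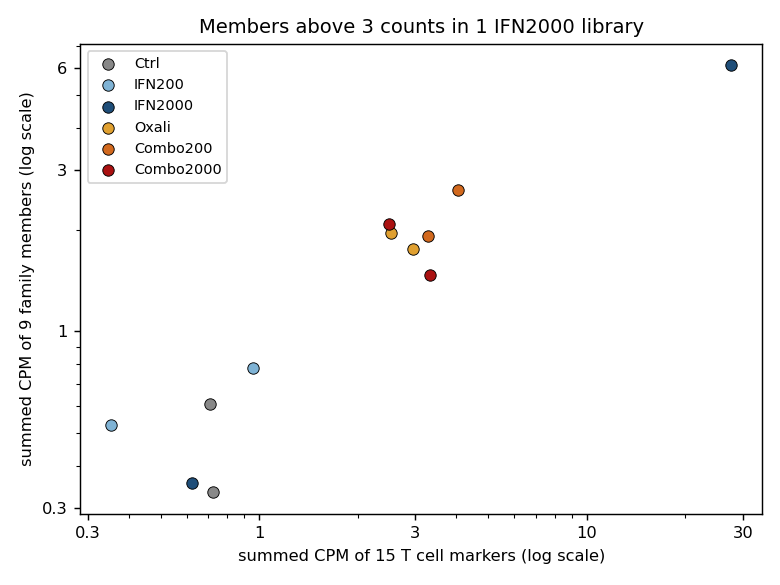
Summed CPM of the 15 T cell markers (horizontal, log scale) and of the 9 members over 3 counts in IFN2000 replicate 2 but not in replicate 3 (vertical, log scale), 1 point per library, colored by group. The 9 members were chosen on that library, which stands alone at 27.7 and 6.12, while its partner lies at 0.625 and 0.357 beside the Ctrl libraries.

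Results that rest on that library changed without it. Tnfrsf4 in Combo2000 against IFN2000 was called lower (log2 fold change -1.99, SE 0.44, adjusted p = 0.000474), and without IFN2000 replicate 2 it was not (-0.90, adjusted p = 0.0734). In the same comparison Ltb and Lta were not called (adjusted p = 0.496 and 0.156). Without replicate 2 both were called higher (adjusted p = 0.00377 and 0.018), and without replicate 3 both were called lower (0.00543 and 0.00036). With replicate 2 of IFN2000 and replicate 3 of Combo200 both left out, the members called in IFN2000 against Ctrl went from 6 to 3, and Tnfrsf14, at a log2 fold change of 3.66 (adjusted p = 0.0036), was the one called higher. Fas and Tnfrsf14 were not among the 9, with 4 and 7 counts of Fas and 21 and 24 of Tnfrsf14 in replicates 2 and 3. Without replicate 3, which leaves the library with T cell reads alone in IFN2000, Lta, Ltb, Tnfrsf4 and Tnfrsf8 were called higher in IFN2000 against Ctrl (adjusted p = 0.00182, 0.000187, 0.000261 and 0.0365). Comparisons that do not contain IFN2000 share its spread, and without either of its libraries Ltb and Lta became called higher in Combo2000 and Combo200 against Ctrl (0.00331 and 0.00325, and 0.0107 and 0.0106), and Tnfrsf4 lower in Combo2000 against Ctrl (0.0441 and 0.0432).

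Family genes whose names fall outside the rule were read beside the members. Of 9 such genes 4 were tested, and 3 were called higher in Oxali against Ctrl, where 34.8% of all genes were. Ngfr, the p75 neurotrophin receptor, rose most (log2 fold change 2.91, from 13 and 10 counts to 92 and 105). Eda2r, a receptor for ectodysplasin A2 and a p53 target, rose by 1.16 and Relt by 0.47, while Cd27 was not called (1.19; 2 and 6 counts against 10 and 11). In both later sets of the drug comparison all 4 were called higher, where 36.5% and 38.5% of all genes were. Cd27, with 1 to 9 counts in the libraries without the drug, passed the filter only through groups with it. Its calls are not free of that selection.

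The intracellular arms of the pathway moved with the drug as well. Of 11 death receptor signalling genes 10 were tested, and 7 were called higher and 1 lower in Oxali against Ctrl (34.8% and 32.8% of all genes), with a median log2 fold change of 0.39, where that of all genes was 0.02. The largest were Tnfaip3 (A20, an inhibitor of NF-κB; log2 fold change 1.01), Cyld (a deubiquitinase; 0.95), Bid (a Casp8 substrate; 0.69) and Casp8 (0.50). Of 14 TRAF and NF-κB genes all were tested, and 10 were called higher and 2 lower (34.8% and 32.8% of all genes), with a median of 0.57. Traf1 was read 1 and 2 times without treatment and 63 and 68 times with the drug (adjusted p = 3.09e-05), and Relb (log2 fold change 3.00), Nfkb2 (1.98) and Nfkbia (1.70) rose as well. Without the drug Traf1 had 1 to 3 counts, IFN2000 replicate 2 (73) aside. It therefore passed the filter only through treated groups, and its call is not free of that selection. Relb and Nfkb2 form the dimer of the alternative NF-κB pathway, and Nfkbia, Nfkb2, Relb, Traf1 and Tnfaip3 are themselves NF-κB targets. In the 3 drug sets the TRAF and NF-κB list had 10, 10 and 11 genes called higher and 2 lower in each, where 34.8%, 36.5% and 38.5% of all genes were called higher and 32.8%, 33.5% and 33.8% lower. Without the libraries holding T cell reads these counts were 10, 10 and 11 higher and 2, 1 and 2 lower.

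Fewer genes of these lists were called with IFNγ alone. In IFN2000 against Ctrl 3 of the death receptor signalling genes were called higher and 2 lower (8.39% and 8.47% of all genes), and 1 each without the libraries holding T cell reads. Traf1 was the 1 gene of the TRAF and NF-κB list called in IFN2000 against Ctrl, with 73 counts in replicate 2 and 3 in replicate 3. Without the libraries holding T cell reads it was not (adjusted p = 0.796). At 200 pg the median log2 fold change was 0.01 over the death receptor signalling genes and -0.03 over the TRAF and NF-κB genes.

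Members that share a chromosome did not all move alike. Chromosome 4 holds 9 of the 38 members. Of the receptors there, Tnfrsf1b, Tnfrsf8, Tnfrsf9 and Tnfrsf14 were called higher in Oxali against Ctrl, Tnfrsf4 was not called, and Tnfrsf25 and Tnfrsf18 were not tested. On chromosome 17 Tnfrsf12a was higher, Tnfrsf21 and Tnfsf9 were lower, and Ltb and Lta were not called.

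The ligands and receptors that did not pass the filter complete the family. Tnfrsf13b (TACI) had 0 to 6 counts, Tnfsf13 (APRIL) 0 to 7 and Tnfsf13b (BAFF, the ligand of Tnfrsf13c) 1 to 5. Tnfsf13 shares 57.27% of its 50-base words with overlapping genes, and Tnfrsf18 18.72% with Gm16008. The receptor Tnfrsf13c was therefore higher with the drug while its ligand was at or near the limit in every library, and the same held for Fas and Fasl.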

How the data were processed

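RNA-seq of 12 Myc-CaP libraries was used. The authors deposited raw counts per gene symbol. Per the labels, poly(A) RNA was made into libraries with a stranded kit, and the submitters' processing notes name STAR 2.7.3a, RSEM 1.3.0 and GRCm38, whereas the study's methods name featureCounts for counting; the values are whole numbers. The strand setting of the counting was not given in the sources used here, so overlapping genes may share reads, and genes with shared sequence may lose or split them. Library totals were 18749975 to 25931516 counts. All 12 columns were used.

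TMM scaling was applied, and tests used edgeR 4.0.16 (quasi-likelihood test, R 4.3.3) in 1 model with a mean per group, after filterByExpr (minimum count 10, minimum total 15), which kept 13177 genes. Benjamini-Hochberg adjusted p under 0.05 over all genes within a comparison was a call; SE is the log2 fold change over the root of F. The smallest two-sided p of an exact permutation test of 2 against 2 libraries is 0.333, so none was run. A ratio against a group at 3 or fewer counts per library was taken from summed counts with an exact binomial 95% interval, or against 3 counts over the group where that group had 0. The script was tested on simulated counts.

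The members and lists were chosen with earlier results of these data known. Values were given in full for members called with a log2 fold change of at least 1 in Oxali, IFN2000 or Combo2000 against Ctrl, in Combo2000 against Oxali or in the interaction at 2000 pg, and for Fas, Tnfrsf10b, Tnfrsf1a, Ltbr and Tnfsf10; of each list at most the 4 genes with the largest change in Oxali were named, and Tnf, marker genes and Traf1 in IFN2000 for their reads in 1 library. Coordinates and exon lengths came from GENCODE release M21 (GRCm38; 53559 of 55216 symbols matched) and promoters from RefSeq. Alternatives were DESeq2 1.42.0, upper-quartile scaling, other filters, only the groups compared, a length and GC correction, a replicate block and leaving out each library. Leaving out both libraries with T cell reads was added after the data were seen. A marker of the line is not reported here.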

Additional observations from a re-analysis of the deposited data

How the results depend on the processing

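The numbers of members called stayed within 1.5 times the values given above under upper-quartile scaling and with only the groups compared. Beyond that, the filter moved several: with a mean count of at least 50 (12 members left to test) 11 were called in Oxali against Ctrl, 1 in Combo200 against Oxali, 2 in Combo2000 against Oxali and 11 in Combo200 against IFN200, and with no filter (35 members) 12 were called in IFN2000 against Ctrl, while the interaction at 2000 pg gave 3; the numbers of members tested differ by construction. DESeq2 called 1 in Combo200 against Oxali. The length and GC correction gave 2 in the interaction at 2000 pg, both lower, with the replicate block and without it. Without both libraries with T cell reads 3 were called in IFN2000 against Ctrl. Leaving out single libraries gave 15 to 18 in Oxali against Ctrl, 3 (without Ctrl replicate 1) to 11 (without IFN2000 replicate 3) in IFN2000 against Ctrl, 1 to 2 in Combo200 against Oxali, and 0 to 5 in the interaction at 2000 pg; the cause was not tested.

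The replicate block, for which the titles give numbers but no shared culture, called 16 in Oxali against Ctrl, 6 in IFN2000 against Ctrl and 15 in Combo2000 against Ctrl, within 1.5 times throughout. Single calls changed under it. In IFN2000 against Ctrl Tnfrsf12a was lost (adjusted p = 0.0559) and Tnfsf9 gained (0.0366). Tnfrsf21 was lost in Oxali against Ctrl (0.0657) and Tnfsf12 in Combo2000 against Ctrl (0.0729). Tnfrsf22 and Tnfsf9 were lost in Combo200 against IFN200 (0.056 and 0.0665), and Tnfsf9 in Combo200 against Ctrl (0.271). Tnfrsf19 was gained in Combo2000 against IFN2000 (0.0456). Same-numbered libraries did not deviate together (correlation of replicate differences -0.05 to 0.02), so the number was not taken as a pairing.

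Of the recomputed fold changes of the members with values given in full, taken only where they were called above, 887 kept direction and call, 17 lost the call and 0 reversed. This tally leaves out all other members, and Combo200 against Ctrl and against Oxali. Calls outside it changed as well. Tnfrsf12a in Combo2000 against IFN2000 went from 0.18 to -0.04 with the length and GC correction. Upper-quartile scaling moved the median of all genes by 0.05 at most. Depth limits ratios against groups with few counts: for Fas in Oxali against Ctrl the counting interval ran from 6.66 to 213.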
